A study of Mus musculus with 6 samples.

Results

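Nanos2, Nanos3, Dnd1, Dazl, Ddx4, Ddx25, Ddx43, Stk31 and Tex14 are germ cell genes whose products bind RNA, act in germ cell RNA granules or build the bridges between germ cells. They were examined in whole testes of newborn male mice in which the corepressor gene Sin3a had been targeted in germ cells. The 9 genes were taken by name, as every non-control probe of the array that carries one of these gene names, and each gene had exactly 1 probe. They are 9 of 35071 probe names on the array. All 9 passed the filter on dim probes, Nanos2 only through the HEMI and WT arrays, and 24569 genes were tested in all.

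RNA was measured on 1-colour Agilent arrays, 1 array per sample, at postnatal day 0 and on an FVB.129/Sv mixed strain background. VSKO mice (n = 2) carried Vasa-cre, a Cre recombinase driven by the germ cell gene Ddx4, with 1 deleted and 1 floxed Sin3a allele. HEMI mice (n = 2) carried the same Cre with 1 deleted and 1 wild-type allele, and WT mice (n = 2) carried the Cre with both wild-type alleles. The Cre transgene was therefore shared by all 3 groups, and a deleted Sin3a allele was shared by VSKO and HEMI mice. The testes were not sorted, so fewer germ cells and less RNA per germ cell cannot be told apart in any value below. The labels name the 2 samples of each group as biological replicates, and the series design gives 2 animals per condition.

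In the fetal testis, germ cells that have become gonocytes are kept out of meiosis by NANOS2, an RNA-binding zinc finger protein that brings the CCR4-NOT deadenylase to its target mRNAs together with its partner DND1. NANOS3 is a related protein needed for survival of primordial germ cells, and DAZL binds mRNAs and regulates their translation. Germ cells also hold cytoplasmic RNA granules, of which the DEAD-box helicase DDX4 is a classical component.

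Between 59.2% and 64.5% of the 59305 non-control spots were well above background on each array, none was saturated, and 99 to 116 per array were marked as outliers. All arrays lay on 1 slide, with VSKO and HEMI in row 1 and WT in row 2. Slide row and genotype therefore cannot be told apart in comparisons with WT, whereas VSKO and HEMI shared a row. Sin3a itself had log2 signals of 0.61 and 0.38 in VSKO testes, 0.89 and 0.89 in HEMI testes, and 1.09 and 1.11 in WT testes. The 3 groups did not overlap, and the differences did not pass (VSKO minus WT -0.60 ± 0.13 SE, adjusted p = 0.134). The sources used here do not name the deleted exons, so this probe is a limited check of the labels. The 19 germ cell number markers tested were well above background on every array. The log2 of their summed linear signals was 6.38 to 6.39 in VSKO, 5.87 to 6.13 in HEMI and 6.05 to 6.18 in WT. Such a sum is weighted towards bright markers such as Tex19.1, and the median marker difference in VSKO minus WT was -0.05. The sum therefore does not show that germ cell content was kept or raised. Single markers went both ways in VSKO minus WT without overlap. Among them were Tex19.1 at 1.01, Sall4 at -0.76, Zbtb16 at -0.52 and Pou5f1 at -0.49, and none of these 4 passed. The only marker that passed by limma was Dnmt3l, at -1.76 (adjusted p = 0.0311), with the limits given below.

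Nanos2 was not well above background in VSKO testes and was well above it in HEMI and WT testes. It was the only member with an adjusted p under 0.05, in VSKO minus WT, and it entered that test only through the groups where it was high. Its probe lies on mouse chromosome 7 at positions 19574205 to 19574264 of the plus strand (mm9), at base 1332 of its transcript. The first 30 of its 60 bases (chr7:19574205-19574234) are shown with those of Stk31 (chr6:49397301-49397330, plus strand), the member with the next largest difference. No capitals are used because no base is singled out.
Nanos2 probe: cagagaagaatgccagttgggttttatgct
Stk31 probe: acataattcatggatcacttcatcagaaca
No other probe of the array shares a run of 20 bases with any of the 9 member probes.

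Signals are given as log2 of the processed signal, relative to the 75th percentile of the array. Nanos2 had log2 signals of -6.48 and -5.61 in VSKO testes, -2.68 and -2.17 in HEMI testes, and -3.28 and -2.95 in WT testes. Both VSKO animals lay below all 4 other animals, with no overlap, and both HEMI animals lay above both WT animals. The probe was well above background on 0 of 2 VSKO arrays, 2 of 2 HEMI arrays and 2 of 2 WT arrays.

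The unscaled data show the same split. The mean spot intensity of the Nanos2 probe was 40.5 and 43.7 over a local background of 20 and 20 in VSKO, 153 and 218 over 18 and 16 in HEMI, and 93.4 and 122 over 20 and 20 in WT. Of 308 negative control spots per array, 6 and 3 were at or above the Nanos2 signal in VSKO, and 0 in HEMI and WT. The dimmest probes well above background on the 2 VSKO arrays had log2 signals of -6.33 and -5.57, just above Nanos2 there.

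Group means of Nanos2 were -6.05 ± 0.61 in VSKO, -2.43 ± 0.36 in HEMI and -3.12 ± 0.23 in WT (SD, n = 2 each). Since the VSKO signals were not well above background, the size of the difference between group means is given as a bound. It allows for dim VSKO signals and not for the spread between animals. The Nanos2 mean was at least 7.14-fold lower in VSKO than in WT and at least 11.5-fold lower than in HEMI. By limma the fitted difference from WT had an adjusted p of 0.0424. That from HEMI, with an adjusted p of 0.0576, did not pass. Each bound sets the brighter group's mean against the mean, over both VSKO arrays, of the Nanos2 signal or of the dimmest probe well above background, whichever was higher. The fitted differences behind these p-values were -2.93 in VSKO minus WT (95% interval -3.80 to -2.06) and -3.62 in VSKO minus HEMI (-4.49 to -2.74). They use the dim VSKO signals as they stand and are not measured sizes. HEMI minus WT was 0.69 ± 0.34 (SE of the fit, as for all differences; 95% interval -0.18 to 1.56, adjusted p = 0.496) and did not pass.

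The Nanos2 call against WT was close to the threshold. Leaving out any 1 of the 6 arrays ended it, with differences of -3.36 to -2.49 and adjusted p of 0.0748 to 0.175. By construction such fits have fewer samples. It was also not called with quantile scaling (adjusted p = 0.0601), without the filter on dim probes (0.0965) or with only VSKO and WT arrays in the fit (0.0748). Normexp background correction, which raises dim signals by an offset, gave a smaller difference of -0.98 (adjusted p = 0.0572). Over 18 alternative settings the adjusted p of this comparison ran from 0.0210 to 0.175, with every difference below 0.

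**Figure D1:**
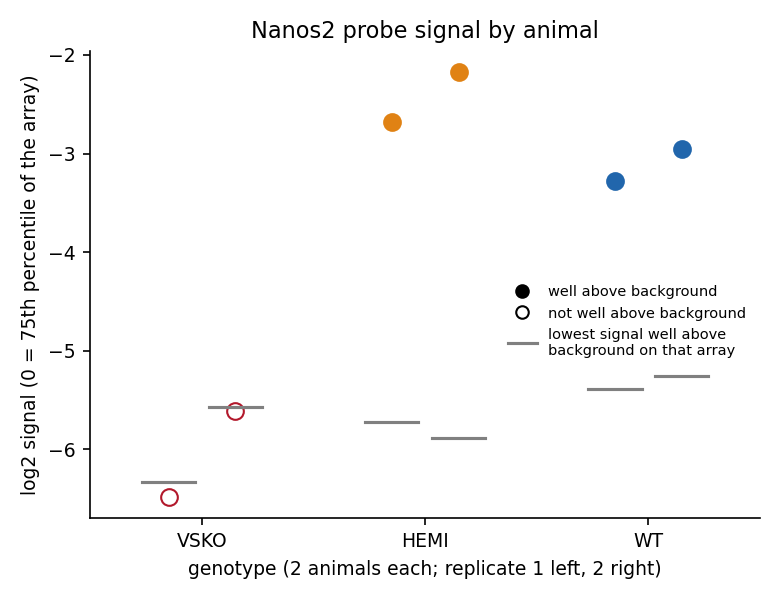
Log2 signal of the Nanos2 probe in each animal (0 is the 75th percentile of the array), with open circles for arrays where it was not well above background and grey lines for the lowest signal well above background on that array. The 2 VSKO animals sit at their grey lines, at -6.48 and -5.61, and the HEMI and WT animals lie well above theirs.

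The other 8 members were well above background on all 6 arrays. On mm9, probes lie at chr18:36923349-36923408 for Dnd1, chr17:50418923-50418982 for Dazl and chr13:113388616-113388675 for Ddx4, all on the minus strand. Others lie at chr9:35349535-35349594 for Ddx25 (minus strand), and on the plus strand at chr9:78271285-78271344 for Ddx43, chr6:49397301-49397360 for Stk31 and chr11:87369212-87369271 for Tex14. Nanos3, the paralog, had log2 signals of 1.64 and 1.76 in VSKO, 1.86 and 1.68 in HEMI, and 1.80 and 1.98 in WT. The VSKO animals lay below the WT animals by little and overlapped the HEMI animals. VSKO minus WT was -0.19 ± 0.14 (interval -0.54 to 0.16, adjusted p = 0.582). Dnd1, which encodes the RNA-binding partner of NANOS2, had signals of 0.97 and 0.77 in VSKO, 0.69 and 0.88 in HEMI, and 1.06 and 1.18 in WT. Its VSKO and HEMI animals overlapped and both groups lay below WT, with VSKO minus WT at -0.25 ± 0.14 (adjusted p = 0.492) and HEMI minus WT at -0.33 ± 0.14 (adjusted p = 0.432). Dazl, the translation regulator, had 1.49 and 1.33 in VSKO, 1.40 and 1.59 in HEMI, and 1.54 and 1.90 in WT. VSKO and HEMI overlapped for Dazl, and VSKO minus WT was -0.31 ± 0.18 (adjusted p = 0.491).

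Among the 3 DEAD-box helicases, Ddx4 had log2 signals of 1.73 and 2.08 in VSKO, 2.18 and 2.31 in HEMI, and 2.05 and 2.25 in WT. The VSKO and WT animals overlapped, and VSKO minus WT was -0.24 ± 0.17 (interval -0.67 to 0.19, adjusted p = 0.570). The transgene uses regulatory sequence of Ddx4, and which stretch is not given in the labels. Ddx25, known as a helicase of later germ cells, had 2.30 and 2.24 in VSKO, 1.97 and 2.20 in HEMI, and 2.32 and 2.37 in WT. Its VSKO minus WT difference was -0.08 ± 0.13 (adjusted p = 0.827) and the lowest animal was in HEMI. Ddx43 had 0.51 and 0.51 in VSKO, 0.45 and 0.62 in HEMI, and 0.87 and 0.98 in WT. Both other groups lay below WT for Ddx43, by -0.41 ± 0.13 in VSKO minus WT (interval -0.73 to -0.09, adjusted p = 0.242) and -0.39 ± 0.13 in HEMI minus WT (adjusted p = 0.331), and they overlapped each other.

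Stk31, which encodes a germ cell protein with a Tudor domain, differed most after Nanos2. Its log2 signals were -0.38 and -0.65 in VSKO, 0.0066 and -0.04 in HEMI, and 0.19 and 0.35 in WT. The 3 groups did not overlap and were ordered VSKO, HEMI, WT. VSKO minus WT was -0.79 ± 0.15 (interval -1.16 to -0.42; unadjusted p = 0.00261, adjusted p = 0.102). The step between VSKO and HEMI was -0.50 ± 0.15 (adjusted p = 0.432), and that between HEMI and WT was -0.29 ± 0.15 (adjusted p = 0.499). No Stk31 difference passed. Tex14, needed for the intercellular bridges between germ cells, had 0.80 and 0.71 in VSKO, 0.72 and 0.75 in HEMI, and 0.64 and 0.88 in WT. The WT animals of Tex14 spanned both other groups, and VSKO minus WT was -0.01 ± 0.14 (interval -0.35 to 0.34, adjusted p = 0.984).

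**Figure D2:**
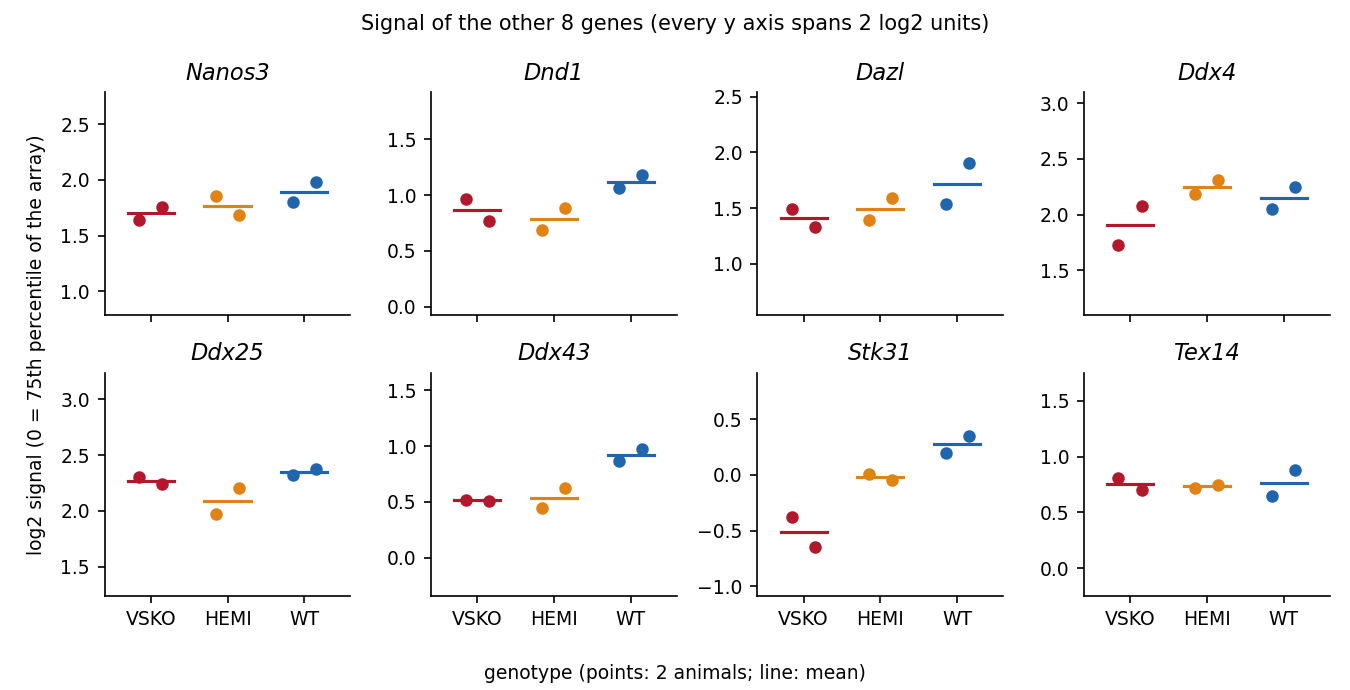
Log2 signal of the other 8 members in each animal (points) with the group mean (line), each panel spanning 2 log2 units. Stk31 shows 3 separate groups, with VSKO at -0.38 and -0.65, whereas the 3 groups of Tex14 cover the same range.

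The members were chosen with earlier results of these data known, so the counts here and in the next paragraph are a description and no test. Counted together, 1 of 9 members, Nanos2 with the limit given above, was called in VSKO minus WT, where 0.977% of all genes were called. In HEMI minus WT 0 of 9 were called, against 0.118% of all genes, and in VSKO minus HEMI 0 of 9, against 0.142%. At an unadjusted p under 0.05 the members were 3 in VSKO minus WT (Nanos2, Stk31 and Ddx43), 1 in HEMI minus WT (Ddx43) and 2 in VSKO minus HEMI (Nanos2 and Stk31). The shares of all genes at that level were 14.7%, 12.4% and 7.69% in the same order of comparisons.

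VSKO animals lay below WT without overlap for 7 members, all except Ddx4 and Tex14, and for 23.4% of all genes. HEMI animals lay below WT for 4 members (Dnd1, Ddx25, Ddx43 and Stk31) and for 28.4% of all genes. VSKO animals lay below HEMI for 3 members (Nanos2, Ddx4 and Stk31) and for 14.1% of all genes. The median member difference was -0.25 in VSKO minus WT, against -0.01 over all genes, and 9 of 9 members were below 0, as were 51.3% of all genes. In HEMI minus WT the member median was -0.22, with 7 of 9 below 0 (53.5% of all genes), and in VSKO minus HEMI it was -0.07, with 6 of 9 below 0 (44.6%). The 3 comparisons share arrays in pairs, so their values are not independent.

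Replicates of a group also differed across the members. All 9 members were higher in WT replicate 2 than in WT replicate 1, by a median of 0.18, against -0.01 over all genes. Without WT replicate 2 the member median of VSKO minus WT was -0.14, with 8 of 9 below 0, and that of HEMI minus WT was -0.04, with 6 of 9 below 0. In VSKO minus HEMI, leaving out HEMI replicate 2 gave a median of 0.01 and 4 of 9 members below 0.

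**Figure D3:**
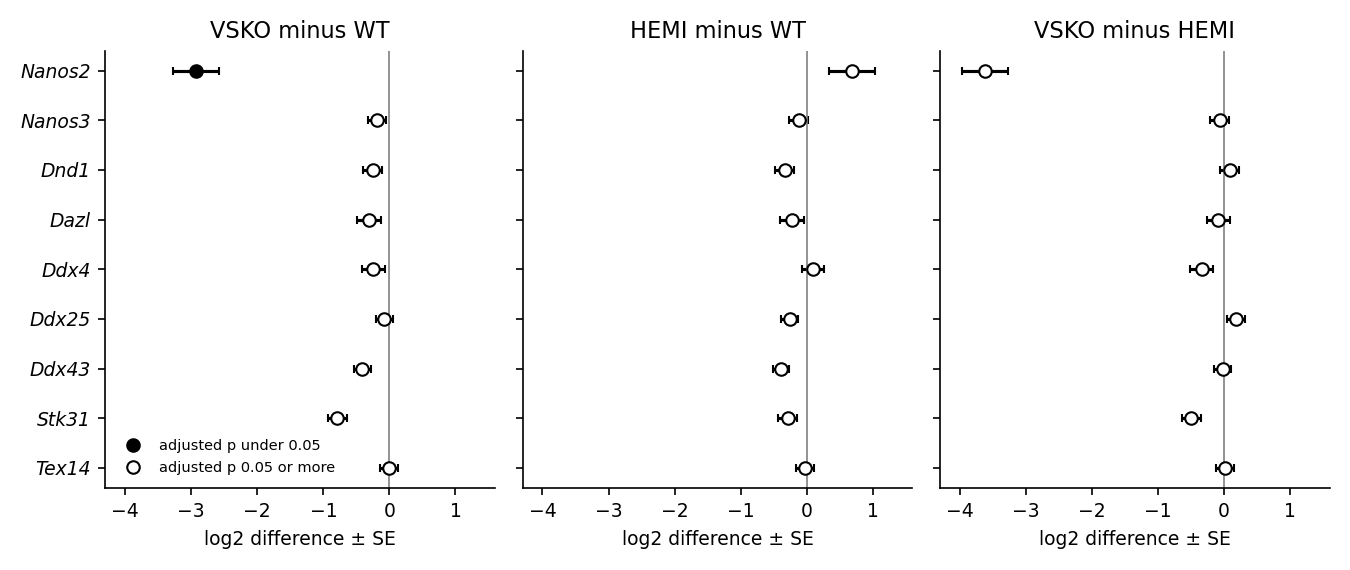
Log2 differences of the 9 members (points, with the SE of the fit as bars) in the 3 comparisons, with a filled point where the adjusted p was under 0.05. The fitted Nanos2 values, which use VSKO signals not well above background, lie at -2.93 in VSKO minus WT and -3.62 in VSKO minus HEMI, while the other 8 members lie between -0.79 and 0.18 in all 3 comparisons.

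Genes of the same pathways were counted next, from lists also chosen with earlier results known, so their counts are a description. They are to be read against all genes in VSKO minus WT, of which 0.977% were called. Of all genes 14.7% had an unadjusted p under 0.05, and the median was -0.01. Of 20 partners of NANOS proteins and mRNA decay factors, 0 rose and 0 fell in VSKO minus WT by limma, 1 was at an unadjusted p under 0.05, and the median difference was 0.07. That gene was Nanos1, another NANOS family member, at -0.50 ± 0.19 (adjusted p = 0.329). Cnot4 stood at -0.44 (adjusted p = 0.409) and Cnot10 at 0.31 (adjusted p = 0.398), both encoding proteins linked to the CCR4-NOT complex.

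Of 23 other germ cell RNA-binding proteins and their cofactors, 0 rose and 1 fell in VSKO minus WT, 10 were at an unadjusted p under 0.05, and the median was -0.26. The gene that fell was Rbm46, an RNA-binding protein of germ cells. Its log2 signals were -4.07 and -4.15 in VSKO, -3.45 and -3.37 in HEMI, and -3.11 and -2.84 in WT. The groups of Rbm46 did not overlap, and VSKO minus WT was -1.14 ± 0.14 (adjusted p = 0.0447). That call was lost in 14 of 19 alternative settings, including every fit that left out 1 array (adjusted p 0.0943 to 0.171), and the difference was -0.71 with normexp. Rnf17, a Tudor domain gene, stood at -1.42 (adjusted p = 0.0774), the piRNA helicase gene Mov10l1 at -1.04 (adjusted p = 0.0853), and Cpeb1, a regulator of mRNA polyadenylation, at -1.03 (adjusted p = 0.0528). In HEMI minus WT these genes stood at -1.27, -0.26 and -0.43, in the same order. Rnf17 was thus about as low in HEMI as in VSKO (VSKO minus HEMI -0.15).

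NANOS2 is known for holding back meiosis, and 14 meiotic genes were listed for it. In VSKO minus WT 0 rose and 0 fell, 5 were at an unadjusted p under 0.05, and the median was 0.04. Spo11, whose protein makes meiotic DNA breaks, stood at -0.91 ± 0.22 (adjusted p = 0.161). Its log2 signals in VSKO were dim, at -5.32 and -4.72, and the difference ran from -1.21 to -0.39 over the alternative settings. Sycp3, a component of the synaptonemal complex, stood at 0.67 ± 0.14 (adjusted p = 0.121). The recombinase gene Dmc1 stood at 0.62 (adjusted p = 0.267) by its brightest probe, and its 2 other probes gave -0.06 and -0.03, so its direction differed between probes. It was -0.09 with normexp.

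Of 15 signalling genes that act upstream of Nanos2 in male germ cells, 0 rose and 0 fell and 0 were at an unadjusted p under 0.05 in VSKO minus WT, with a median of -0.02. The activin receptor gene Acvr1b stood at -0.46 (adjusted p = 0.436), and the Nodal antagonist genes Lefty2 and Lefty1 at -0.42 (adjusted p = 0.522) and -0.25 (adjusted p = 0.641). Of 10 intercellular bridge genes, a group to which Tex14 is linked, 0 rose, 0 fell and 0 were at an unadjusted p under 0.05. Kif23 stood at 0.38 (adjusted p = 0.356), Rbm44 at -0.29 (adjusted p = 0.561) and Cdc42ep1 at 0.28 (adjusted p = 0.510).

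Of the 19 germ cell number markers, 0 rose and 1 fell in VSKO minus WT, 7 were at an unadjusted p under 0.05, and the median was -0.05. The gene that fell was Dnmt3l, which helps to establish DNA methylation in gonocytes, at -1.76 ± 0.18 (adjusted p = 0.0311) in VSKO minus WT and -2.19 ± 0.18 (adjusted p = 0.0428) in HEMI minus WT. These calls were lost in 9 and 10 of 19 alternative settings, including every fit that left out 1 array (adjusted p 0.0674 to 0.148 in VSKO minus WT and 0.0902 to 0.214 in HEMI minus WT). Other markers stood in both directions, with Dppa5a at 1.23 (adjusted p = 0.225), Tex19.1 at 1.01 (adjusted p = 0.0846) and Sall4 at -0.76 (adjusted p = 0.134). Over these 6 lists of germ cell genes, the only gene called in HEMI minus WT was Dnmt3l, against 0.118% of all genes. By limma 0 were called in VSKO minus HEMI, against 0.142% of all genes. In VSKO minus HEMI, 0 of 10 bridge genes to 8 of 19 number markers were at an unadjusted p under 0.05, against 7.69% of all genes. Sycp3 stood at 1.14 in that comparison (adjusted p = 0.0800). The part of germ cell number in the Nanos2 result was not tested.

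Markers of other testis cells were counted beside these. For the 13 Sertoli cell markers the log2 of the summed linear signals was 7.88 to 7.94 in VSKO, 7.79 to 8.05 in HEMI and 7.92 to 8.02 in WT. Of them 0 passed in VSKO minus WT (2 at an unadjusted p under 0.05), with Cldn11 at 0.95, Inhbb at -0.35 and Gdnf at -0.35. By the same measure the 8 fetal Leydig cell markers stood at 6.95 to 7.08 in VSKO, 6.80 to 7.08 in HEMI and 7.36 to 7.55 in WT. Of these 1 fell in VSKO minus WT by limma, the steroid enzyme gene Cyp17a1 at -1.40 ± 0.16 (adjusted p = 0.0423). That call was lost in 9 of 19 alternative settings, including every fit that left out 1 array (adjusted p 0.0888 to 0.172). Of the 8 Leydig markers 5 were at an unadjusted p under 0.05, in both directions. Star stood at -1.83, Lhcgr at -1.09, Cyp11a1 at -0.89, Scarb1 at -0.34, Hsd3b1 at 0.03, Nr5a1 at 0.05 and Thbs2 at 0.58, and their part in the member values was not tested. In VSKO minus WT 0 genes passed among the interstitial, endothelial, macrophage and blood, and skeletal muscle markers, and 0 were at an unadjusted p under 0.05. The largest differences there were -0.36 for Tcf21, -0.36 for Cdh5, 0.73 for Hba-a1 and -1.89 ± 1.68 for Tnnc2. Summed muscle signals stood at log2 2.98 and 4.18 in VSKO, 4.02 and 5.52 in HEMI, and 5.66 and 3.36 in WT. Muscle markers thus varied widely within groups. Summed blood and macrophage signals stood at log2 6.83 and 8.37 in VSKO, 6.66 and 6.68 in HEMI, and 6.90 and 6.90 in WT. There VSKO replicate 2 stood apart.

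The genes with profiles most like that of Nanos2 were taken from 15821 candidates with a gene symbol, by the root mean square difference of their mean-centred log2 signals over the 6 arrays. They were Vmn1r132 at 0.43, Defb28 at 0.62, Spib at 0.73, Tmprss12 at 0.74 and Anks1b at 0.75. Because they were chosen for this pattern their levels are a description. All 5 were well above background on 0 of 2 VSKO arrays, and Spib also on 0 of 2 WT arrays. Their mean log2 signals in VSKO ran from -7.90 (Tmprss12) to -5.96 (Defb28). Another kept probe of Defb28 stood at -0.75 in VSKO minus WT, against -1.77 for the probe used.

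**Figure D4:**
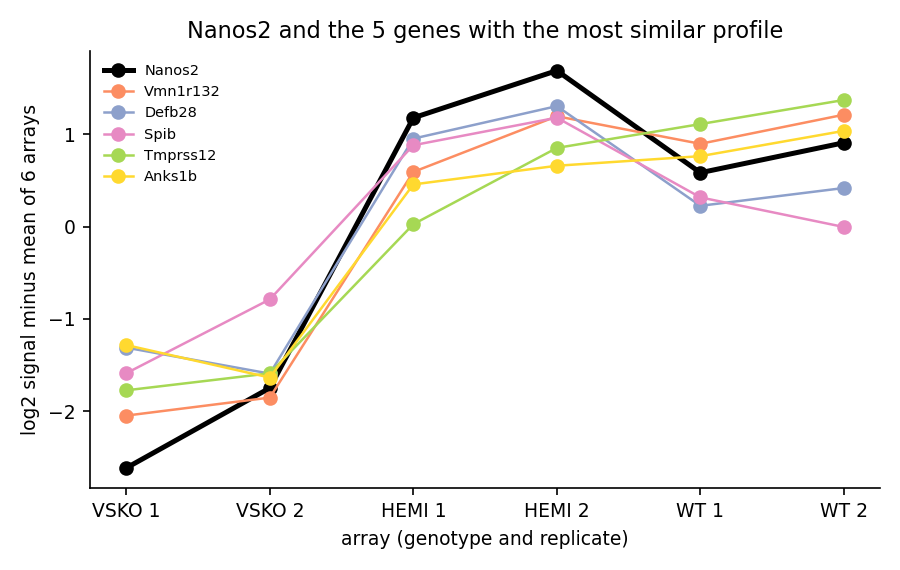
Log2 signal minus the mean of the 6 arrays for Nanos2 (thick black line) and the 5 genes nearest to it in root mean square difference, by array. All 6 profiles are low on the 2 VSKO arrays, where none of these probes was well above background.

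Each other member had its nearest gene at a smaller difference, from 0.02 for Dazl (Ephx1) and Tex14 (Rap1gap2) to 0.05 for Ddx4 (Timm8a2). Between these lay Nanos3 with Gng10, Dnd1 with Siah2, Ddx25 with Clec2l, Ddx43 with Ipo8 and Stk31 with B4galnt4, each at 0.03. This measure grows with the range of a profile over the arrays. That range was 4.31 for Nanos2 and 0.24 (Tex14) to 1.00 (Stk31) for the others, so the distances differ in scale. The Pearson correlation was 0.968 for Nanos2 with Vmn1r132, and 0.969 (Ddx25) to 0.997 (Dazl) for the other members with their nearest genes. Each value is that of the nearest of 15821 candidates over 6 arrays, so a high value follows from the choice. The value for Vmn1r132 also rests on VSKO signals not well above background. The member closest to Nanos2 was Stk31, at 1.35.

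The 250 bases upstream of the gene start were read from RefSeq (GRCm38.p6) for the 8 members found there. They are shown for Nanos2, the called member (chr7:18987274-18987523, plus strand), for its paralog Nanos3 (chr8:84176553-84176802, minus strand) and for Stk31 (chr6:49395289-49395538, plus strand). Capitals mark CpG dinucleotides and the motif CACGTG.
Nanos2 upstream window: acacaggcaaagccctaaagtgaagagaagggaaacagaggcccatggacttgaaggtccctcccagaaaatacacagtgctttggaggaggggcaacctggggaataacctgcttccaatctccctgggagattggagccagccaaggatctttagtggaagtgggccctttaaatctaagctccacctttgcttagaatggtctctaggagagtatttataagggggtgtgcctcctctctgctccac
Nanos3 upstream window: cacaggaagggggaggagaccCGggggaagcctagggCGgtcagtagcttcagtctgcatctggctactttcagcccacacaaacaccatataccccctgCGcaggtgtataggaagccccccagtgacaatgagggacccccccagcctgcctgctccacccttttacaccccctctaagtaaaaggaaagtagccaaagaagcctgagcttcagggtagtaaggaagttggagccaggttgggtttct
Stk31 upstream window: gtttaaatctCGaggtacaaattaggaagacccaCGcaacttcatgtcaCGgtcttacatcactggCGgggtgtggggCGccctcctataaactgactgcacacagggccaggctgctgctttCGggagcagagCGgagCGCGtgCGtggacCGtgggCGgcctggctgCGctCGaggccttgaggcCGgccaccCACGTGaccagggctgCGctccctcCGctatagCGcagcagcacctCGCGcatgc
The Nanos2 window holds 0 CpG, as few as 8.26% of the 27025 genes with a window, and the Nanos3 window holds 3. The others hold 17 (Tex14), 20 (Dazl), 20 (Ddx43), 21 (Stk31), 31 (Ddx4) and 34 (Ddx25), where the median over all genes was 6. A second window listed for Stk31 holds 26. Nanos2 thus had the fewest CpG of the 8 windows, which is a description of these sequences with no test.

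**Figure D5:**
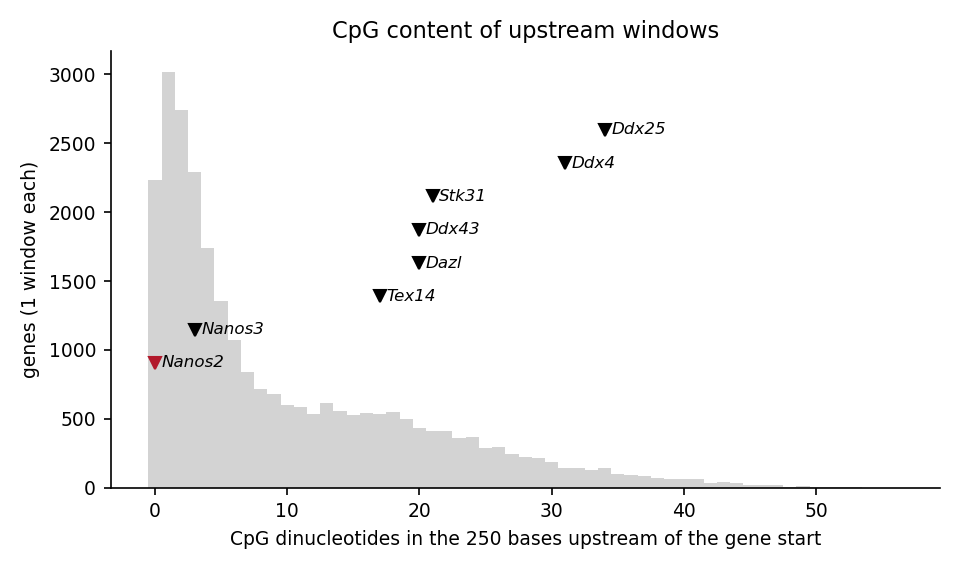
Number of CpG dinucleotides in the 250 bases upstream of the gene start, for all 27025 genes (grey bars, genes per count) and for 8 members (triangles, whose height carries no value). Nanos2 is at 0 and Nanos3 at 3, and the other 6 lie between 17 and 34.

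Next, 3 motifs were searched on both strands. The E-box CACGTG was in the windows of Ddx4 and Stk31 (2 of 8, and 6.05% of all windows). TCCCGC, part of E2F sites, was in Ddx4, Ddx25 and Tex14 (3 of 8, and 16.9%), and TATAAA in Nanos2 and Stk31 (2 of 8, and 13.0%). A match describes letters in the window and says nothing of binding.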

How the data were processed

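RNA of whole testes was measured on 6 1-colour (Cy3) Agilent arrays, 2 each of VSKO, HEMI and WT. Per the file headers, the deposited scanner files hold the processed signal as a background-subtracted intensity on a linear scale, the mean spot and local background intensity, and quality flags of 0 or 1 (unit: other). The header gives Agilent Feature Extraction 10.7.3.1, and the submitters' processing notes give 8.5.1.1. The authors' deposited series table is an intensity that equalled the processed signal divided by each array's median, within 0.00105%. Depth does not apply to arrays, and 2 animals per group limit the precision.

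Here, log2 processed signals were centred on each array's 75th percentile (controls apart), spots marked as outliers were dropped, and repeat spots of 1 probe were averaged. Probes were kept when both arrays of 1 or more groups had them well above background (34367 of 55681 probes), and a gene was represented by its probe with the highest mean (24569 genes). All groups entered 1 model in limma 3.58.1, run under R 4.3.3 (3 residual and 2.25 prior degrees of freedom), with Benjamini-Hochberg adjustment over all genes and calls at an adjusted p under 0.05. Gene names were updated through RefSeq (GRCm38.p6). Probe positions are those of the array design (mm9).

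The members and the gene lists were chosen with earlier results of these data known. Genes named from the lists are those that passed in any comparison and up to 3 with the largest absolute VSKO minus WT difference. Of listed genes, Taf4b was below the filter, Insl3 and Hbb-b1 were not analysed here, and some items are not reported here. Alternatives were other scalings, background correction, filters, probe choices, priors, sample sets and the replicate number as a block.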

Additional observations from a re-analysis of the deposited data

How the results depend on the processing

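Nanos2 kept its direction in all 3 comparisons under every alternative in which it was tested, and its call moved. In VSKO minus WT it was -2.95 with quantile scaling, -0.98 with normexp, and -2.93 without a filter and with only the groups compared, where 0 members were called. The filter requiring all 6 arrays leaves Nanos2 out, so 0 members were called there too. In VSKO minus HEMI 1 member, Nanos2, was called with median scaling and the authors' series values (-3.69), normexp (-1.496) and a trend (-3.62). Leaving out 1 array gave -3.36 to -2.49 in VSKO minus WT, 0.43 to 0.94 in HEMI minus WT and -4.05 to -3.18 in VSKO minus HEMI, with 0 members called.

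Counts of genes called moved more. VSKO minus WT, with 240, gave 12 without a filter, 42 with only the groups compared and 0 to 69 without 1 array. HEMI minus WT, with 29, gave 55 with median scaling and the series values, 132 with normexp, 0 without a filter (5281 at an unadjusted p under 0.05), 68 with the filter on all arrays, 130 with a trend, 4 with only the groups compared and 0 to 8 without 1 array. VSKO minus HEMI, with 35, gave 75 with median scaling and the series values, 17 with quantile scaling, 5 without a filter, 15 with the filter on all arrays, 0 with only the groups compared (1742 unadjusted) and 0 to 41 without 1 array. Causes were not tested.

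With the replicate number as a block, VSKO minus WT gave 19 genes and 0 members called (Nanos2 -2.93, adjusted p = 0.0557), and HEMI minus WT and VSKO minus HEMI gave 0 (2796 and 1873 unadjusted). Replicate 1 deviations correlated at -0.04, -0.03 and -0.01 between groups. The labels state no pairing of samples across groups, and whether equal replicate numbers share a batch was not tested.

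The other 8 members gave 442 values of the same direction and call and 14 reversed, all of differences near 0. Tex14 was 0.010 in HEMI minus WT and -0.051 in VSKO minus HEMI with median scaling and the series values. Leaving out 1 array turned Tex14 (-0.13 to 0.11 in VSKO minus WT, -0.15 to 0.092 in HEMI minus WT, -0.029 to 0.070 in VSKO minus HEMI), Ddx4 in HEMI minus WT (-0.0043 to 0.20), and in VSKO minus HEMI Nanos3 (-0.15 to 0.018), Dnd1 (-0.014 to 0.18), Dazl (-0.18 to 0.012) and Ddx43 (-0.11 to 0.067). Of other genes, VSKO minus WT turned for Kdr (-0.50 to 0.016), Hba-a1 (-0.055 to 1.52), Alas2 (-0.17 to 1.27), Tnnt3 (-3.39 to 0.47) and Ckm (-3.18 to 0.68), and for Dmc1 with normexp (-0.094) and by its other probes (-0.063 and -0.033). Dim probes limit Nanos2, since its VSKO signal was not well above background.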
